A study of Mus musculus with 18 samples.

Results

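Transcripts of 7 matrix metalloproteinases (*Mmp2*, *Mmp3*, *Mmp7*, *Mmp9*, *Mmp10*, *Mmp13* and *Mmp14*) and of 3 of their tissue inhibitors (*Timp1*, *Timp2* and *Timp3*) were followed in mouse colon. They were chosen by name as 10 of the 47729 genes in the count table. The samples were colon of wild-type (WT) mice and of *Cldn2*KO mice, which lack the tight junction protein claudin-2, and the study's methods describe a C57BL/6 background with littermate controls. For each genotype there were untreated controls, mice in recovery from colitis induced with the polymer dextran sulfate sodium (DSS), and mice given the carcinogen azoxymethane together with DSS (AOM/DSS). The AOM/DSS schedule combined a lone 10 mg/kg dose of AOM with 3 cycles of DSS at 2.5%. Each of the 6 groups held 3 libraries, 18 in all. The labels give no age, no length of recovery and no word on whether the libraries of a group came from separate animals, so p-values measure the spread between these libraries.

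Matrix metalloproteinases are zinc-dependent enzymes that are secreted as inactive precursors or anchored in the membrane, and that cut collagens, laminin, fibronectin and a range of growth factors and cytokines. Tissue inhibitors of metalloproteinases (TIMPs) bind the active site of the activated enzymes and block it. In the intestine stromal cells, leukocytes and epithelial cells each make part of the set, and *Mmp7*, also called matrilysin, is known as an epithelial member that is made in intestinal adenomas and, in the small intestine, in Paneth cells.

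*Mmp3*, *Mmp7*, *Mmp10* and *Mmp13* lie together on chromosome 9, between positions 7272514 and 7699585 of GRCm38, a span of 427.1 kb. The other members are spread over the genome, with *Mmp2* on chromosome 8 (92827328 to 92853417), *Mmp9* on chromosome 2 (164940780 to 164955850), *Mmp14* on chromosome 14 (54431612 to 54441265), *Timp1* on chromosome X (20870166 to 20874735), *Timp2* on chromosome 11 (118301069 to 118355740) and *Timp3* on chromosome 10 (86300372 to 86349506). RefSeq promoter windows (GRCm38.p6) matched 8 of the 10 members, with *Mmp2* and *Mmp9* named only. The 250 bases before the start of the 4 chromosome 9 genes are printed because these genes held features that the other matched members lacked. Capitals mark TGAGTCA or its reverse complement TGACTCA, the letters bound by the AP-1 factors Fos and Jun, and TATAAA, the TATA box. All 4 windows are on the plus strand, at chr9:7445572-7445821 for *Mmp3*, chr9:7691840-7692089 for *Mmp7*, chr9:7502092-7502341 for *Mmp10* and chr9:7272264-7272513 for *Mmp13*.
Mmp3: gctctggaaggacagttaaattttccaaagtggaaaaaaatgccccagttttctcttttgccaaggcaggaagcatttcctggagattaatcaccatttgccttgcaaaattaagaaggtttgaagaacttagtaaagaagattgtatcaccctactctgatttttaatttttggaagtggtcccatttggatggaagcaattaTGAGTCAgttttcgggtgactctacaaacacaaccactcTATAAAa
Mmp7: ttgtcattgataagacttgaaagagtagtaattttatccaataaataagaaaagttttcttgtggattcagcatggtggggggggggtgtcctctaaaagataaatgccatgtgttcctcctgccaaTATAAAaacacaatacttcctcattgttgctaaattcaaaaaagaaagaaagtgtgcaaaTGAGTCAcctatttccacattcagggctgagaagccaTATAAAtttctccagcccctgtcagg
Mmp10: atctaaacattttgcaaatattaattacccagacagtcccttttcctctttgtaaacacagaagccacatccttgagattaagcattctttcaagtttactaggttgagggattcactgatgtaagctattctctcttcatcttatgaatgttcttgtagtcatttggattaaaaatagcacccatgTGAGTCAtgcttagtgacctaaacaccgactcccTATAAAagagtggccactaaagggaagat
Mmp13: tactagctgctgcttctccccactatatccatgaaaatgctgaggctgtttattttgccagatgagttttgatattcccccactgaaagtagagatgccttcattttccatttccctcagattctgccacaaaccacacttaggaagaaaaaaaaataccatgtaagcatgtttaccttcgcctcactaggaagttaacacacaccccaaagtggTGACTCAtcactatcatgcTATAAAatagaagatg

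A second RefSeq window of *Mmp7*, just after the first, held neither motif. Each of the 4 windows printed held the AP-1 letters 1 time, with the nearest base 40 bases before the start in *Mmp3*, 57 in *Mmp7*, 57 in *Mmp10* and 29, on the minus strand, in *Mmp13*. Each also held TATAAA, which began 7 bases before the start in *Mmp3*, 26 in *Mmp7* (with a further match at 123), 29 in *Mmp10* and 16 in *Mmp13*. Both strands were searched in windows of 300 bases that ran from 250 before to 50 after the start, and neither motif was found in the windows of *Mmp14*, *Timp1*, *Timp2* or *Timp3*. Over 32851 promoter windows of the same length, 5.2% held the AP-1 letters and 13.6% held TATAAA. The letters AGGAAG, which hold the core read by ETS factors, were found in 6 members and in 35.4% of all windows. A match describes the letters only.

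Libraries held 17.6 to 27.4 M reads (median 19.6), and levels are given as counts per M reads (CPM) after scaling between libraries. *Cldn2* stood at 44.5 to 504 CPM in the 9 WT libraries and at 0.0554 to 0.556 CPM in the 9 *Cldn2*KO libraries. Some libraries stood apart in a way that matters for the recovery comparison. *Hoxb13*, a marker of the distal end of the colon, was at most 0.502 CPM in all 6 recovery libraries and in WT control replicate 2, and lay between 198 and 570 CPM in the other 11. The labels give the tissue as colon, the study describes distal colon for the recovery libraries, and 8 epithelial markers summed to 10160 CPM or more in every library. Colon region and recovery can therefore be told apart only through that 1 WT control library, and within *Cldn2*KO colon not at all. Its values are given beside the results it touches. Fits with low *Hoxb13* as a covariate take the region difference from that WT library alone, also for *Cldn2*KO colon. *Xist*, a transcript of the inactive X chromosome, was above 100 CPM in 6 libraries, namely replicates 2 and 3 of WT recovery, *Cldn2*KO recovery and *Cldn2*KO AOM/DSS.

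All 10 members passed the filter on low counts, but some did so mainly through treated libraries. Among the 6 controls, *Mmp9* reached 10 reads in 0 libraries, *Mmp7* and *Mmp10* in 2 each, *Mmp3* in 3, *Timp1* in 4 and *Mmp13* in 5. In WT and *Cldn2*KO controls, *Mmp14*, *Timp2* and *Timp3* stood between 14.3 and 46.9 CPM in every library. *Mmp14* anchors in the membrane and activates the precursor of *Mmp2*, while *Timp2* also takes part in that activation. *Mmp2*, a gelatinase made largely by fibroblasts, stood at 5.88 to 13 CPM.

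**Figure D1:**
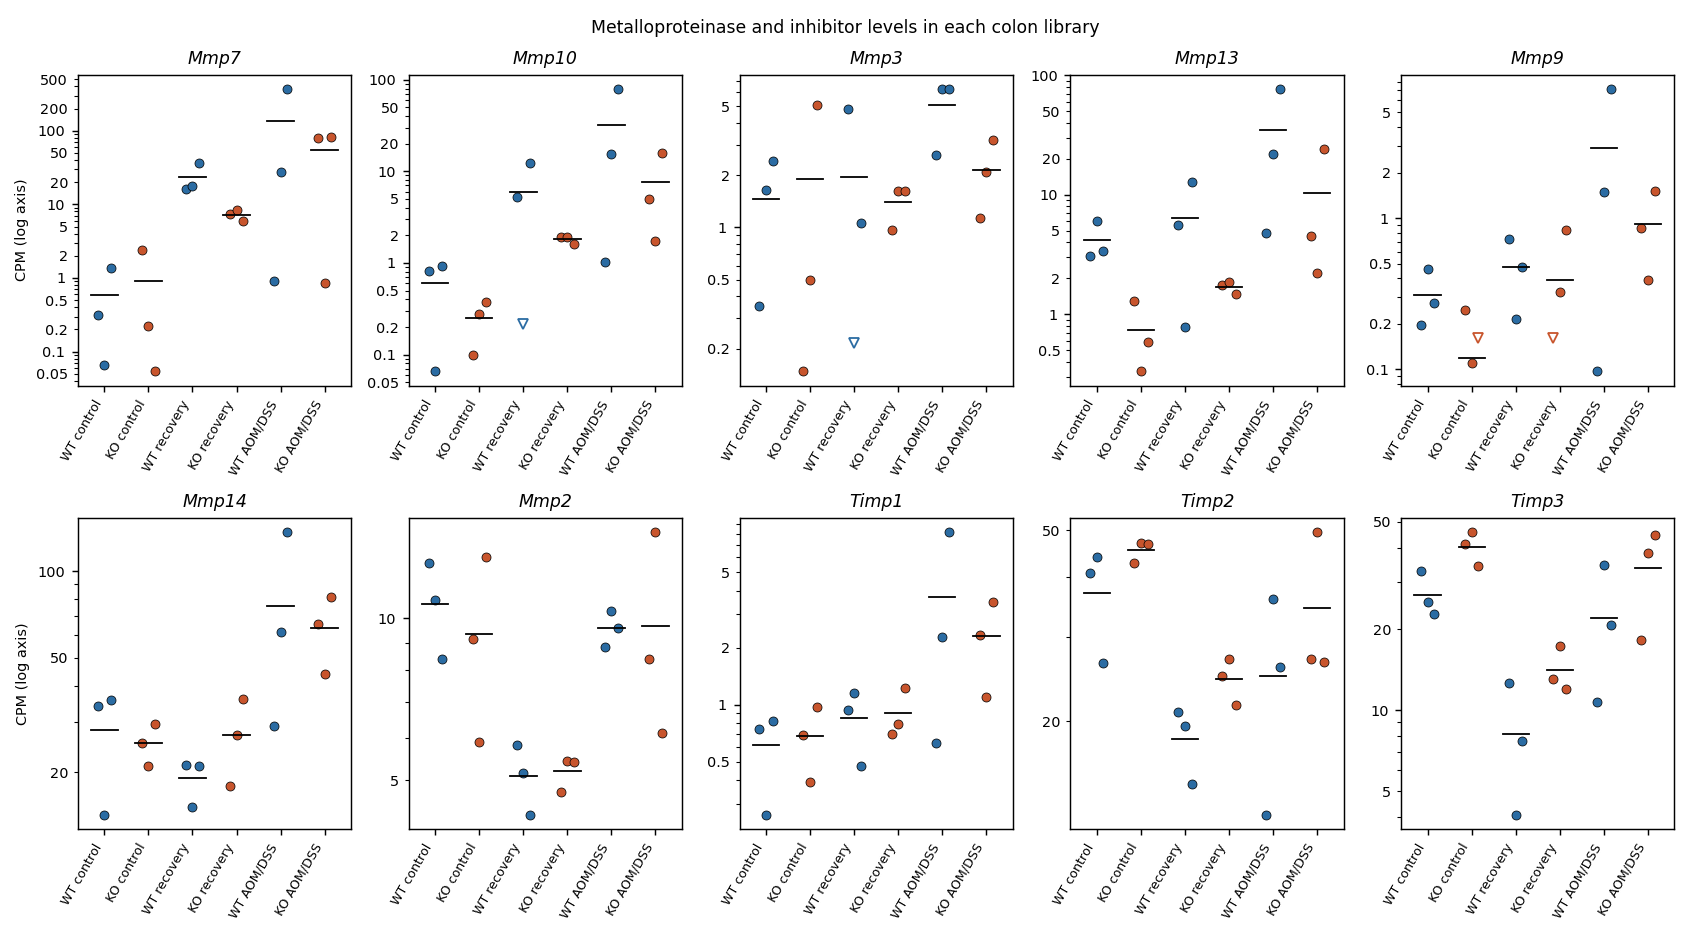
Levels of the 10 members in each library, in counts per M reads (CPM) on a log axis, 1 panel per gene. Dots are libraries (blue WT, orange-red *Cldn2*KO), bars are group means, and open triangles are libraries without a read, drawn at the level that 3 reads would give. *Mmp7* spans 0.0538 to 372 CPM while *Mmp2* stays between 4.31 and 14.5 CPM.

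To compare genes with each other, CPM were divided by exon length in kb. On this scale the 7 proteinases summed to 7.62 to 15.6 CPM per kb in the 6 controls, to 15 to 53.3 in recovery and to 14.4 to 464 after AOM/DSS. The 3 inhibitors summed to 10.5 to 18.1 in controls, 5.28 to 9.91 in recovery and 5.31 to 18.7 after AOM/DSS. The ratio of inhibitor to proteinase transcripts per kb was 0.674 to 2.38 in controls, 0.0991 to 0.584 in recovery and from 0.0396 upwards after AOM/DSS, so the 6 recovery libraries lay below all controls. Of the 6 AOM/DSS libraries 5 did too, at 0.368 or less, and *Cldn2*KO replicate 2 lay among the controls at 0.988. The gene with the highest level per kb was *Timp2* in 5 of 6 controls and *Mmp7* in 5 of 6 recovery and 4 of 6 AOM/DSS libraries. The share of *Mmp7* in the summed level of the 10 genes was 0.2 to 7.9% in controls, 21.0 to 58.5% in recovery and 2.1 to 72.2% after AOM/DSS. These ratios count transcripts and say nothing of enzyme activity.

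**Figure D2:**
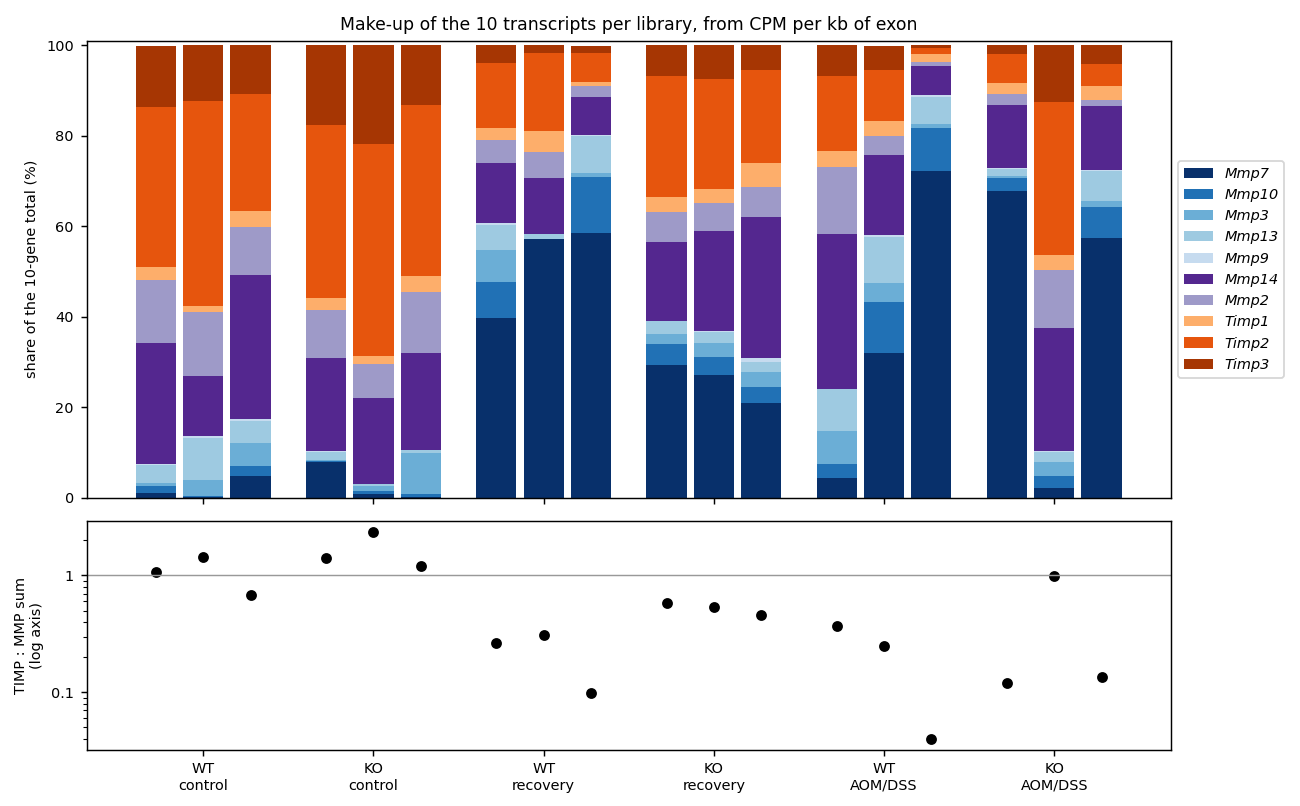
Upper panel, share of each member in the summed level of the 10 genes (percent, from CPM per kb of exon), 1 bar per library. Lower panel, ratio of the summed level of the 3 inhibitors to that of the 7 proteinases on a log axis with a line at 1. *Mmp7* fills 21.0 to 58.5% of the bar in recovery and at most 7.9% in controls.

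The comparison of AOM/DSS with control colon asked which members changed in colon exposed to the carcinogen and repeated colitis. In WT colon 3 of the 10 members rose, *Mmp7*, *Mmp10* and *Timp1*, and none fell, where 10.4% of all 16937 genes tested were called (edgeR's quasi-likelihood test, Benjamini-Hochberg adjusted p under 0.05). Of all genes, 3.81% were called higher. In *Cldn2*KO colon 0 of 10 members were called by edgeR, where 0.195% of all genes were, while 6 had an unadjusted p under 0.05 (*Mmp7*, *Mmp9*, *Mmp10*, *Mmp13*, *Mmp14* and *Timp1*), as did 15.2% of all genes. In WT colon 6 members and 29.9% of all genes had such a p. For *Cldn2*KO colon DESeq2 called 3 members (*Mmp7*, *Mmp10* and *Mmp13*) and 3.55% of all genes, and limma-voom called 3 (*Mmp13*, *Mmp14* and *Timp1*) and 18.1%. For WT colon DESeq2 called 6 members and 17.9% of all genes, while limma-voom called 0 members and 15%. The median log2 fold change of the 10 members was 2.18 in WT and 1.54 in *Cldn2*KO colon, against 0.01 over all genes in each.

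*Mmp7* stood at 0.314, 0.0654 and 1.37 CPM in WT controls and at 0.919, 27.6 and 372 CPM in WT colon after AOM/DSS. *Cldn2*KO colon held 2.41, 0.222 and 0.0538 CPM in controls and 79.6, 0.843 and 82.8 CPM after AOM/DSS. In each genotype 2 AOM/DSS libraries lay above every control and the other, WT replicate 1 and *Cldn2*KO replicate 2, lay among the controls. The group mean of WT AOM/DSS was 133.5 ± 207 CPM and that of *Cldn2*KO AOM/DSS 54.4 ± 46.4 CPM (SD, n = 3), so the SD was close to the mean or above it. The log2 fold change was 7.82 with a standard error (SE) of 2 in WT (adjusted p = 0.0295 by edgeR) and 5.87 with an SE of 1.83 in *Cldn2*KO (adjusted p = 0.167 by edgeR). With a library left out the *Cldn2*KO value ran from 5.38 to 8.57.

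*Mmp10*, or stromelysin 2, which cuts proteoglycans, laminin and fibronectin, was higher in every AOM/DSS library. It stood at 0.825, 0.0654 and 0.932 CPM in WT controls and at 1.02, 15.4 and 79.7 CPM in WT colon after AOM/DSS. The *Cldn2*KO values were 0.0985, 0.277 and 0.376 CPM in controls and 5.04, 1.75 and 15.9 CPM after AOM/DSS. All 6 AOM/DSS libraries exceeded all 6 controls, WT replicate 1 only narrowly. The log2 fold change was 5.65 (SE 1.54, adjusted p = 0.0356 by edgeR) in WT and 4.90 (SE 1.62, adjusted p = 0.184 by edgeR) in *Cldn2*KO colon. With a library left out the *Cldn2*KO value ran from 3.76 to 5.39.

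*Mmp13*, a collagenase that cuts fibrillar collagen, stood at 3.1, 6.08 and 3.40 CPM in WT controls and at 4.84, 21.8 and 77.2 CPM in WT colon after AOM/DSS. Its *Cldn2*KO values were 1.28, 0.333 and 0.592 CPM in controls and 4.51, 2.24 and 24.3 CPM after AOM/DSS. The *Cldn2*KO groups did not overlap and the WT groups did, through WT replicate 1. Neither difference passed the test, with log2 fold changes of 3.05 in WT (adjusted p = 0.0704 by edgeR) and 3.79 in *Cldn2*KO (adjusted p = 0.157 by edgeR). With a library left out the *Cldn2*KO value ran from 2.19 to 4.47. *Mmp3*, stromelysin 1, stood at 0.148 to 5.06 CPM in the 6 controls and 1.14 to 6.30 CPM in the 6 AOM/DSS libraries, and its difference in WT did not pass the test (log2 fold change 1.81, adjusted p = 0.306 by edgeR).

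*Mmp9*, a gelatinase stored in neutrophil granules and also made by macrophages, stood at 0 to 0.458 CPM in the 6 controls. After AOM/DSS it stood at 0.0968, 1.49 and 7.18 CPM in WT and at 0.855, 0.389 and 1.51 CPM in *Cldn2*KO colon, so 4 of 6 libraries exceeded every control. The log2 fold changes were 3.26 in WT (adjusted p = 0.0788 by edgeR) and 2.86 in *Cldn2*KO (adjusted p = 0.316 by edgeR). *Mmp14* stood at 33.9, 14.3 and 35.8 CPM in WT controls and at 29.0, 61.3 and 137 CPM in WT colon after AOM/DSS, and at 25.4, 21.0 and 29.4 CPM in *Cldn2*KO controls and 65.6, 43.9 and 81.1 CPM after AOM/DSS. Except for WT replicate 1, the AOM/DSS libraries exceeded all controls. Its log2 fold changes of 1.43 (SE 0.462, adjusted p = 0.0584 by edgeR) and 1.33 (SE 0.461, adjusted p = 0.199 by edgeR) were both short of the threshold. Without WT AOM/DSS replicate 3 the WT log2 fold changes were 1.40 for *Mmp9*, 1.68 for *Mmp13* and 0.69 for *Mmp14*. *Mmp2* stayed within 6.12 to 14.5 CPM in the 6 AOM/DSS libraries, against 5.88 to 13 CPM in the 6 controls, with 95% intervals of the log2 fold change from -0.8 to 0.5 in WT and from -0.6 to 0.7 in *Cldn2*KO colon.

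Among the inhibitors, *Timp1*, the cytokine-inducible one, was the member called. It stood at 0.747, 0.262 and 0.822 CPM in WT controls and at 0.629, 2.27 and 8.18 CPM in WT colon after AOM/DSS, a log2 fold change of 2.56 (SE 0.742, adjusted p = 0.0414 by edgeR). *Cldn2*KO controls held 0.690, 0.388 and 0.968 CPM, and *Cldn2*KO AOM/DSS libraries 2.33, 1.10 and 3.48 CPM (log2 fold change 1.74, adjusted p = 0.271 by edgeR). All AOM/DSS libraries but WT replicate 1 exceeded all controls. *Timp2* and *Timp3* overlapped their controls in both genotypes, at 12.8 to 49.6 and 10.7 to 44.7 CPM, and neither was called. Over the 10 members, the groups did not overlap for 2 in WT (*Mmp3* and *Mmp10*), where 32.2% of all genes were apart, and for 5 in *Cldn2*KO colon (*Mmp9*, *Mmp10*, *Mmp13*, *Mmp14* and *Timp1*), where 29.1% were.

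**Figure D3:**
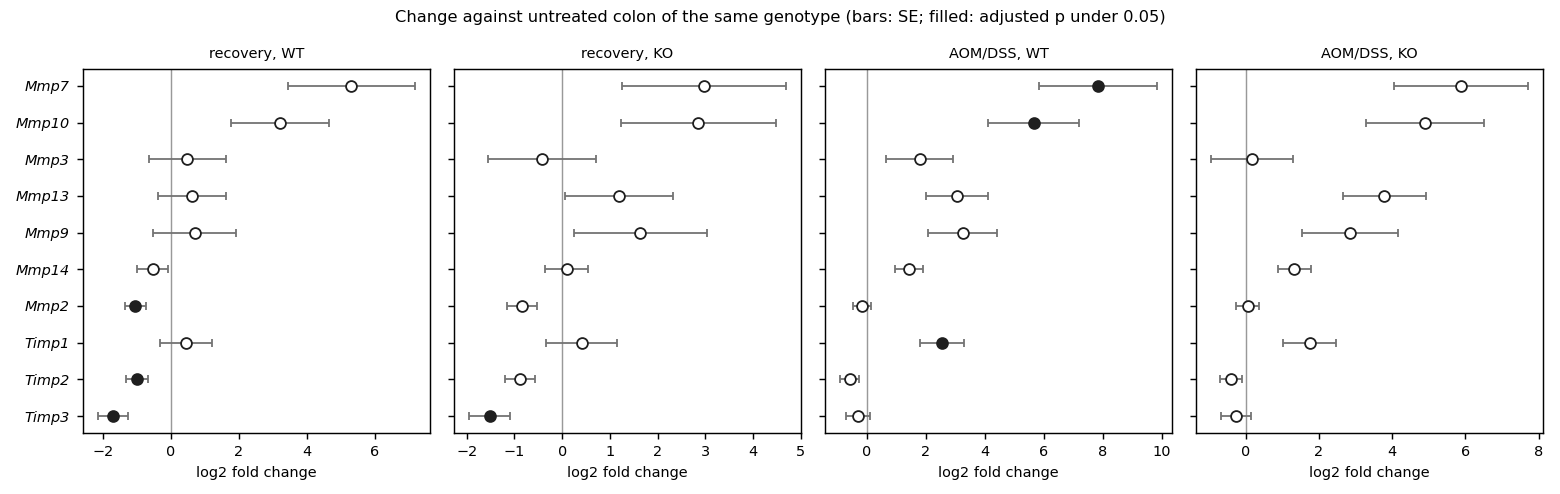
Log2 fold change of each member against the controls of its genotype, after AOM/DSS and in recovery, 4 panels with their own horizontal scales. Points are edgeR estimates, bars are 1 SE, and filled points had an adjusted p under 0.05. *Mmp7*, *Mmp10* and *Timp1* are filled to the right in WT AOM/DSS, and *Timp3* is filled to the left in recovery of both genotypes.

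The calls in WT AOM/DSS rested on few libraries and on the fit. None of *Mmp7*, *Mmp10* and *Timp1* was called with low *Hoxb13* as a covariate (log2 fold changes 7.38, 5.18 and 2.23, adjusted p 0.108 to 0.14 by edgeR), in a fit of the compared groups alone (7.86, 5.69 and 2.60, adjusted p 0.18 to 0.208), with limma-voom (4.57, 3.55 and 1.32, adjusted p 0.0946 to 0.225) or without the filter on low counts (7.84, 5.67 and 2.57, adjusted p 0.0549 to 0.0909), and *Timp1* was not called with high *Xist* as a covariate (2.56, adjusted p 0.0549). With WT AOM/DSS replicate 3 left out, 0 of 10 members were called and 171 genes in all. Dropping WT control replicate 1 (1094 genes called) or its replicate 2 (367 genes) also left 0 members. When WT control replicate 3 was dropped *Mmp7* alone was called, and when WT AOM/DSS replicate 1 was dropped 6 members were. Over all left-out libraries 171 to 1725 genes were called, against 1761 with every library kept, so these member counts moved along with the total. Without WT AOM/DSS replicate 3 the log2 fold changes were 4.6 for *Mmp7* (adjusted p = 0.143 by edgeR), 3.69 for *Mmp10* (adjusted p = 0.16 by edgeR) and 1.22 for *Timp1* (adjusted p = 0.274 by edgeR).

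Libraries in which *Mmp7* was high also held high levels of other transcripts, and the part of these in the result was not tested. The 7 listed Paneth cell markers summed to 61.0, 234 and 1507 CPM in WT colon after AOM/DSS and to 674, 28.3 and 489 CPM in *Cldn2*KO AOM/DSS, against 6.54 to 34.0 CPM in controls. The Paneth cell defensin *Defa17* had no read in the 12 control and recovery libraries. *Lyz1*, the Paneth cell lysozyme, made up much of that sum, at 21.1, 148 and 1087 CPM in WT and 488, 8.59 and 362 CPM in *Cldn2*KO AOM/DSS. *Notum*, a Wnt target that is high in adenomas, stood at 0.145, 24.2 and 98.6 CPM in WT colon after AOM/DSS and at 38.9, 0.259 and 42.2 CPM in *Cldn2*KO AOM/DSS, and at most at 0.548 CPM in controls. In both genotypes the AOM/DSS library with *Mmp7* at control level was also the lowest of its group for *Notum*. Of 14 Wnt target genes listed, 6 were called higher in WT AOM/DSS, against 3.81% of all genes (*Notum*, *Nkd1*, *Axin2*, *Znrf3*, *Rnf43* and *Myc*), with 0 to 11 called when each library was left out in turn and 0 with low *Hoxb13* as a covariate, and 0 were called in *Cldn2*KO AOM/DSS, where 0.195% of all genes were.

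Of 12 neutrophil markers, 11 without *Ly6g* summed to 0.394 to 8.11 CPM in controls, 4.31, 17.1 and 353 CPM in WT colon after AOM/DSS and 17.2, 6.65 and 23.2 CPM in *Cldn2*KO AOM/DSS. *Mmp9* was highest in the library with the highest sum, WT AOM/DSS replicate 3. Of the defining markers, *Mpo* had no read in 13 and *Elane* in 17 of the 18 libraries. *Ly6g* itself ranged from 0.589 to 528 CPM and was low in the libraries that were low for *Hoxb13*. It was lower in all 6 AOM/DSS libraries, at 191 to 272 CPM, than in the 5 controls with high *Hoxb13*, at 342 to 528 CPM, and the sum of all 12 markers overlapped, at 214.5 to 609 CPM against 2.29 to 529 CPM in controls. Markers of other cells were lower in WT AOM/DSS, where 5 of 10 smooth muscle, 4 of 8 epithelial and 4 of 8 enteric glia and neuron markers fell, where 6.58% of all genes did. With a library left out these counts ran from 0 to 7, 2 to 3 and 0 to 5, and with low *Hoxb13* as a covariate they were 1, 2 and 0. The smooth muscle sum was 565 to 2982 CPM there against 3752 to 5643 CPM in WT controls, and 2346 to 5878 against 7694 to 10140 CPM in *Cldn2*KO colon. The epithelial sum was 10220 to 12530 against 18590 to 19710 CPM in WT. Their part in the result was not tested. Fewer cells of a type and less RNA per cell cannot be told apart in these bulk libraries.

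Recovery was compared with control colon to ask what remained after colitis. In WT colon 3 of 10 members fell, *Timp3*, *Mmp2* and *Timp2*, and none was called higher, where 22.2% of all genes were called and 12.2% were called lower. In *Cldn2*KO colon 1 of 10 fell, *Timp3*, where 19.4% of all genes were called and 10% were called lower. In *Cldn2*KO colon the share of members that fell equals the share of all genes that did, so it is not a result about the members. The groups did not overlap for 4 members in WT (*Mmp2*, *Mmp7*, *Timp2* and *Timp3*), against 37.7% of all genes, and for 6 in *Cldn2*KO colon (*Mmp2*, *Mmp7*, *Mmp10*, *Mmp13*, *Timp2* and *Timp3*), against 40.3%. The median log2 fold change of the 10 members was 0.46 in WT and 0.25 in *Cldn2*KO colon, against -0.04 and 0.00 over all genes.

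*Timp3* is an inhibitor that stays bound to the extracellular matrix and also blocks the sheddase *Adam17*. It stood at 32.8, 25.1 and 22.7 CPM in WT controls and at 12.6, 4.09 and 7.68 CPM in recovered WT colon. *Cldn2*KO controls held 41.3, 45.9 and 34.4 CPM, against 13.1, 17.3 and 12 CPM in recovery. Every recovery library lay below every control. The log2 fold change was -1.71 (SE 0.431, adjusted p = 0.012 by edgeR) in WT and -1.52 (SE 0.424, adjusted p = 0.0208 by edgeR) in *Cldn2*KO colon. *Timp3* shares 1733 of its 8144 exon bases with *Syn3* on the opposite strand, which had 6 to 52 reads per library, and since the strand setting of the counting is not given, its counts are uncertain to that extent.

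*Timp2* stood at 40.7, 44.0 and 26.5 CPM in WT controls and at 20.9, 19.5 and 14.8 CPM in recovered WT colon, a log2 fold change of -1.01 (SE 0.317, adjusted p = 0.0329 by edgeR). *Cldn2*KO controls held 42.7, 46.9 and 46.8 CPM, against 24.9, 26.9 and 21.6 CPM in recovery, a log2 fold change of -0.89 (SE 0.315) that was not called (adjusted p = 0.0581 by edgeR). The groups were apart within each genotype. *Mmp2*, which digests gelatin and type IV collagen, stood at 12.7, 10.8 and 8.38 CPM in WT controls and 5.81, 5.16 and 4.31 CPM in recovered WT colon (log2 fold change -1.06, SE 0.314, adjusted p = 0.0257 by edgeR). The *Cldn2*KO values were 9.16, 5.88 and 13 CPM in controls and 4.76, 5.42 and 5.41 CPM in recovery (log2 fold change -0.85, adjusted p = 0.0693 by edgeR). All 6 recovery libraries were below all 6 controls.

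*Mmp7* was above every control in all 6 recovery libraries, at 16, 17.6 and 36.6 CPM in WT and at 7.44, 8.25 and 6 CPM in *Cldn2*KO colon. With 1 to 49 reads in each control the error of the change was large, and it was not called in WT (log2 fold change 5.31, SE 1.86, adjusted p = 0.0532 by edgeR) or in *Cldn2*KO colon (2.96, SE 1.71, adjusted p = 0.252 by edgeR). For WT the call was made by DESeq2 (adjusted p = 0.00521) by edgeR on the compared groups alone (adjusted p = 0.0198) and by edgeR on genes with at least 1 CPM in 3 libraries (adjusted p = 0.0494). Over left-out libraries the log2 fold change ran from 4.82 to 6.73 in WT and from 2.44 to 5.66 in *Cldn2*KO colon. The *Cldn2*KO value was 5.66 without control replicate 1, the control with the highest level. Other alternatives gave up to 8.36 in WT and 6.44 in *Cldn2*KO colon. The summed Paneth cell markers stood at 5.52 to 37.2 CPM in recovery and 6.54 to 34.0 CPM in controls, but *Ang4*, a Paneth cell ribonuclease also made by goblet cells, was higher in recovery of both genotypes (log2 fold change 4.21 in WT, adjusted p = 0.00752 by edgeR, and 2.77 in *Cldn2*KO, adjusted p = 0.0435 by edgeR). With low *Hoxb13* as a covariate *Ang4* was called in neither genotype, and in *Cldn2*KO recovery the call was also lost with high *Xist* as a covariate and without some single libraries, *Cldn2*KO control replicate 2 among them. The part of these markers in the level of *Mmp7* was not tested.

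*Mmp10* stood at 5.20, 0 and 12.4 CPM in recovered WT colon and at 1.93, 1.90 and 1.62 CPM in *Cldn2*KO recovery, so 5 of 6 libraries exceeded every control. WT recovery replicate 2 had no read of *Mmp10* or of *Mmp3*, where 3 reads would have given 0.215 CPM. Neither change of *Mmp10* was called (log2 fold change 3.21, adjusted p = 0.12 by edgeR in WT, and 2.84, adjusted p = 0.245 by edgeR in *Cldn2*KO). With a library left out they ran from 2.07 to 3.77 in WT and from 2.45 to 3.27 in *Cldn2*KO, and other alternatives gave up to 6.37 and 6.47. The *Cldn2*KO change was called in a fit of the compared groups alone (2.82, adjusted p = 0.00218 by edgeR). The remaining members overlapped their controls in WT. *Mmp13* stood at 5.61, 0.789 and 12.8 CPM in recovered WT colon and at 1.77, 1.85 and 1.48 CPM in *Cldn2*KO recovery, *Mmp14* at 15.1 to 35.9 CPM in the 6 libraries, *Mmp3* at 0 to 4.80, *Mmp9* at 0 to 0.836 and *Timp1* at 0.473 to 1.23.

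WT control replicate 2, low for *Hoxb13* like the recovery libraries, was at control level for these genes. It held *Timp3* at 25.1, *Timp2* at 44.0 and *Mmp2* at 10.8 CPM, above all 6 recovery libraries, and *Mmp7* at 0.0654 CPM, below all of them. With low *Hoxb13* as a covariate the log2 fold change of *Timp3* was -1.61 in WT (adjusted p = 0.0837 by edgeR) and -1.37 in *Cldn2*KO colon (adjusted p = 0.471 by edgeR), those of *Mmp2* and *Timp2* in WT were -1.08 and -1.26, and 0 members were called in either genotype. Leaving out 1 library kept the *Timp3* call in WT, while *Timp2* and *Mmp2* were both lost without WT control replicate 1, WT recovery replicate 2 or WT recovery replicate 3, and *Timp2* also without WT control replicate 2 or WT recovery replicate 1. High *Xist*, found in 4 of 6 recovery libraries and in no control, was tried as a covariate too, and with it *Mmp2* (log2 fold change -1.09, adjusted p = 0.0628 by edgeR) and *Timp2* (-1.04, adjusted p = 0.0767) in WT and *Timp3* in *Cldn2*KO colon (-1.53, adjusted p = 0.0752) were not called. In *Cldn2*KO colon the *Timp3* call was lost without control replicate 1 or 2 or recovery replicate 1 or 3 (edgeR adjusted p 0.0513 to 0.0659).

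Stromal and macrophage markers were low in the same recovery libraries, and their part in these results was not tested. The 10 fibroblast markers summed to 142 to 268 CPM in recovery against 435 to 737 in controls, and the smooth muscle markers to 719 to 2123 against 3752 to 10140. Of the fibroblast markers 3 were called lower in WT and 4 in *Cldn2*KO recovery, against 12.2% and 10% of all genes. *Col1a1*, *Col1a2* and *Col3a1* were among them in both genotypes. These genes and *Dcn* are also counted with the matrix protein genes below. WT control replicate 2 held 466 CPM of the fibroblast markers. The 8 endothelial markers summed to 21.8 to 59.0 CPM against 56.9 to 89.0, and the 10 macrophage markers to 66.9 to 119 against 144 to 402. The epithelial markers overlapped in *Cldn2*KO colon, at 10160 to 16460 CPM against 14600 to 17620. In WT they were lower, at 10470 to 14750 against 18590 to 19710 CPM, and 5 of 8 fell, where 12.2% of all genes were called lower. With low *Hoxb13* as a covariate 3 fell, and with a library left out 3 to 5. The 5 B and plasma cell markers summed to 89.95 to 128 CPM in WT recovery against 731 to 877 in WT controls. Of 20 genes for matrix proteins that the metalloproteinases cut, 12 fell in WT and 13 in *Cldn2*KO recovery and none rose, against 12.2% and 10% of all genes called lower, among them *Fn1* (fibronectin, log2 fold change -2.44 in WT and -3.14 in *Cldn2*KO) and *Col1a1* (type I collagen, -1.85 and -2.56). With a library left out 7 to 14 of the 20 were called lower in WT and 9 to 12 in *Cldn2*KO recovery. With low *Hoxb13* as a covariate, 4 and 0 were called.

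Genotype was compared within each treatment to ask whether loss of claudin-2 changed the members. No member was called in any of these comparisons by edgeR, DESeq2 or limma-voom, where edgeR called 1.17% of all genes in control, 0.974% in recovery and 0.0059% in AOM/DSS colon. In the same order DESeq2 called 4.06%, 8.09% and 0.0236% of all genes and limma-voom 14.9%, 11.2% and 0.0059%. At an unadjusted p under 0.05 there was 1 member in controls (*Mmp13*), where 13.1% of all genes had such a p, and 0 in recovery and in AOM/DSS, where 19.9% and 5.6% did.

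In controls *Mmp13* was lower in *Cldn2*KO colon, at 1.28, 0.333 and 0.592 CPM against 3.1, 6.08 and 3.40 CPM in WT, and the groups did not overlap. The log2 fold change was -2.48 (95% interval -4.87 to -0.09, adjusted p = 0.36). Markers of other cells also differed between these groups, and their part was not tested. The 5 B and plasma cell markers summed to 13 to 139 CPM in *Cldn2*KO controls against 731 to 877 in WT controls, and the smooth muscle markers to 7694 to 10140 against 3752 to 5643. The epithelial markers summed to 14600 to 17620 CPM against 18590 to 19710. Of 5 T cell markers 0 were higher and 2 were called lower, *Cd8a* and *Cd3e* (log2 fold change -3.89 and -4.28), where 1.17% of all genes were called. *Mmp13* was also at lower group means in *Cldn2*KO colon in recovery (log2 fold change -1.91) and after AOM/DSS (-1.74), where the groups overlapped and the intervals ran from -4.14 to 0.31 and from -3.84 to 0.36. *Timp3* showed the other direction, with log2 fold changes of 0.59, 0.78 and 0.62 in control, recovery and AOM/DSS colon, none of them called (adjusted p = 0.61 by edgeR, 0.324 and 0.881). Over the 10 members the genotypes did not overlap for 2 in controls (*Mmp13* and *Timp3*), against 22.3% of all genes, and for 2 in recovery (*Mmp7* and *Timp2*), against 24%. After AOM/DSS they overlapped for all 10, where 11.3% of all genes did not overlap.

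In recovery *Mmp7* was 16, 17.6 and 36.6 CPM in WT and 7.44, 8.25 and 6 CPM in *Cldn2*KO colon, with every *Cldn2*KO library below every WT library. The log2 fold change was -1.69 with a 95% interval from -4.83 to 1.44 (adjusted p = 0.571 by edgeR). Of 6 Paneth cell markers tested 0 were higher in *Cldn2*KO recovery and 0 were called, with a median log2 fold change of -1.4. The B and plasma cell markers summed to 15.9 to 20.4 CPM against 89.95 to 128 in WT. Of these 5 markers only 1, *Jchain*, was called lower and 1 pointed higher, with a median log2 fold change of -0.47. Their part was not tested. After AOM/DSS the fitted differences of *Mmp7* (-1.30), *Mmp9* (-1.66), *Mmp10* (-2.08) and *Timp1* (-0.68) pointed to lower levels in *Cldn2*KO colon, but none was called, and without WT AOM/DSS replicate 3 those of *Mmp7*, *Mmp9* and *Timp1* turned positive (1.93, 0.20 and 0.66), that of *Mmp10* was -0.12 and that of *Mmp13* was -0.37. *Mmp2* had the narrowest intervals of the log2 fold change, from -0.84 to 0.47 in controls, -0.64 to 0.69 in recovery and -0.64 to 0.66 after AOM/DSS. Intervals for *Mmp7* were wide enough to hold large differences in either direction.

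**Figure D4:**
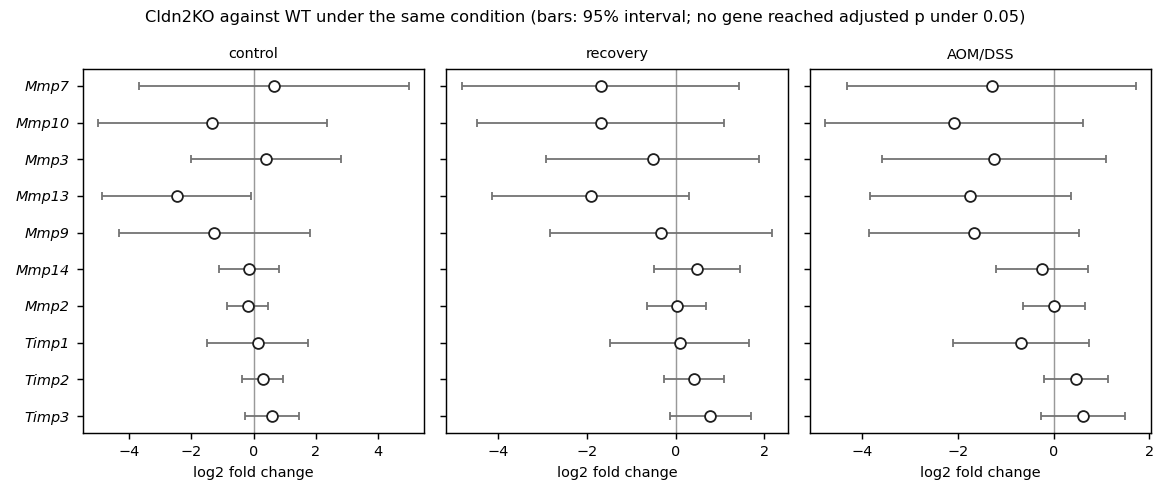
Log2 fold change of *Cldn2*KO against WT for each member in control, recovery and AOM/DSS colon, with 95% intervals from the edgeR fit. Every interval crosses 0 except that of *Mmp13* in controls (-4.87 to -0.09), which had an adjusted p of 0.36.

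Whether the response to treatment differed between genotypes was tested with an interaction term. Of the 10 members 0 were called for recovery, where 0.13% of all genes were, and 0 for AOM/DSS, where 0.0118% were. No member had an unadjusted p under 0.05 in either test, where 18.5% and 8.44% of all genes had one. Neither DESeq2 (5.5% and 0.514% of all genes) nor limma-voom (10.4% and 1.7%) called a member. For *Mmp7* the difference in log2 response was -2.35 for recovery (95% interval -7.68 to 2.99, adjusted p = 0.663 by edgeR) and -1.95 for AOM/DSS (-7.23 to 3.32, adjusted p = 0.854 by edgeR). The calls of *Mmp7*, *Mmp10* and *Timp1* in WT AOM/DSS are therefore not a measured difference between the genotypes.

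Other genes of the same system were read from lists. Of 16 further metalloproteinases 10 passed the filter. In WT AOM/DSS *Mmp8*, the neutrophil collagenase, was called higher (log2 fold change 4.80, SE 1.22, adjusted p = 0.0307 by edgeR). So was *Mmp12*, the macrophage elastase (3.81, SE 0.92, adjusted p = 0.0247 by edgeR), while *Mmp17* fell, where 3.81% of all genes were called higher and 6.58% lower. With a library left out, 0 to 4 of the list were called higher, and 0 with low *Hoxb13* as a covariate. *Mmp12* stood at 0.968, 3.41 and 27.4 CPM there, so it too was highest in replicate 3. In recovery *Mmp19* fell in both genotypes (log2 fold change -1.46 in WT and -1.35 in *Cldn2*KO). It was the only one of the 10 called in WT, near the 12.2% of all genes called lower, so this is not a result about the list. In *Cldn2*KO recovery *Mmp23* (-2.65), *Mmp17* (-2.45) and *Mmp11* (-1.31) fell as well, where 10% of all genes were called lower and 1599 of 16937 higher. *Mmp8* was called higher there (adjusted p = 0.0217 by edgeR), at 0.321, 0.927 and 0.295 CPM against no read in the *Cldn2*KO controls. Of 7 neutrophil markers tested 6 pointed higher there and 2 were called, *S100a8* and *S100a9* (log2 fold change 6.86, SE 2.25, and 7.02, SE 1.90). With a library left out 0 to 2 were called, and 0 with low *Hoxb13* or high *Xist* as a covariate. Their part was not tested. In *Cldn2*KO recovery *Mmp28*, which is made by epithelial cells among others, rose by 2.59 (adjusted p = 0.000296 by edgeR). It stood at 15.7, 13.8 and 23.2 CPM against 2.74 to 6.93 CPM in the 6 controls and 8.39 to 10.1 CPM in recovered WT colon. With low *Hoxb13* as a covariate 0 genes of the metalloproteinase list were called in recovery of either genotype.

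*Timp4*, the remaining member of the inhibitor family, fell in recovery of both genotypes, by a log2 fold change of -3.54 in WT (adjusted p = 0.00347 by edgeR) and -3.68 in *Cldn2*KO (adjusted p = 0.00272 by edgeR). Unlike *Timp2* and *Timp3* it was low in WT control replicate 2, at 1.05 CPM against 10.5 to 11.7 CPM in the other WT controls and 0.215 to 1.10 CPM in recovery, and it was not called with low *Hoxb13* as a covariate. Of 15 ADAM and ADAMTS proteinases tested, 3 fell in WT recovery and 5 fell and 1 rose in *Cldn2*KO recovery, against 12.2% and 10% of all genes called lower. *Adamts15* was lower in both. With a library left out 1 to 4 fell in WT, and 3 to 5 fell and 0 to 1 rose in *Cldn2*KO recovery. With low *Hoxb13* as a covariate 1 and 0 of the list were called. In the plasminogen system, whose protease plasmin can activate metalloproteinase precursors, 7 of 9 listed genes were tested. *Plau* (urokinase) was lower in WT recovery (log2 fold change -1.15). As 1 of 7 is near the 12.2% of all genes called lower there, this is not a result about the list. With a library left out 0 to 1 of the list were called lower there, and with high *Xist* as a covariate 0. *Plaur*, the urokinase receptor, and *Serpinf2*, the plasmin inhibitor, were higher in *Cldn2*KO recovery (3.34 and 2.63), where 1599 of 16937 genes were called higher. Of the *Cldn2*KO calls 0 to 2 were made with a library left out, 1 with high *Xist* as a covariate and 0 with low *Hoxb13* as a covariate. Of 8 cytokine genes tested that are known to induce metalloproteinases, *Hgf* fell in WT recovery (log2 fold change -2.09, adjusted p = 0.0113 by edgeR). As 1 of 8 is near the 12.2% of all genes called lower there, this is not a result about the list. *Tnf* rose in *Cldn2*KO recovery (2.95, adjusted p = 0.0493 by edgeR), where 1599 of 16937 genes were called higher. *Il11* and *Il1b* rose in WT AOM/DSS (log2 fold change 3.91 and 3.17), where 3.81% of all genes were called higher. None was called in *Cldn2*KO AOM/DSS, where 0.195% of all genes were. Neither recovery call was made with low *Hoxb13* as a covariate, each was lost without some single libraries (WT control replicate 1 for *Hgf* and *Cldn2*KO control replicate 1 for *Tnf* among them), that of *Tnf* was also lost with high *Xist* as a covariate, and *Tnf* was highest in replicate 2 (0.856, 12 and 2.95 CPM). *Il11* and *Il1b* were highest in WT AOM/DSS replicate 3, with *Il11* at 0.339, 0.744 and 7.51 CPM and *Il1b* at 2.95, 5.34 and 74.7 CPM. In that comparison 0 to 4 of the list were called higher with a library left out and 0 with low *Hoxb13* as a covariate.

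The members were compared with each other by the correlation of their log2 CPM. Each library was taken as its deviation from its group mean, so that treatment and genotype did not enter. These values are a description over 18 libraries that share their depth scaling, and 45 pairs were computed. *Mmp14* and *Timp1* went together most closely (Pearson's r = 0.88, Spearman's rho 0.81), and r was 0.74 without the 2 libraries farthest from the median of *Mmp14*. *Mmp10* and *Mmp13*, both in the chromosome 9 cluster, had an r of 0.81 (rho 0.59), which was 0.64 without the 2 farthest libraries. *Mmp7* and *Timp1* had an r of 0.75 (rho 0.48, and 0.58 without the 2 farthest). *Timp2* and *Timp3* had an r of 0.59 that dropped to 0.30 without the 2 farthest libraries, and so rested on them in part. *Mmp3* had an r of 0.58 with *Mmp10*, the next member along the chromosome, (rho 0.62, and 0.33 without the 2 farthest), and of -0.04 with *Mmp7*.

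**Figure D5:**
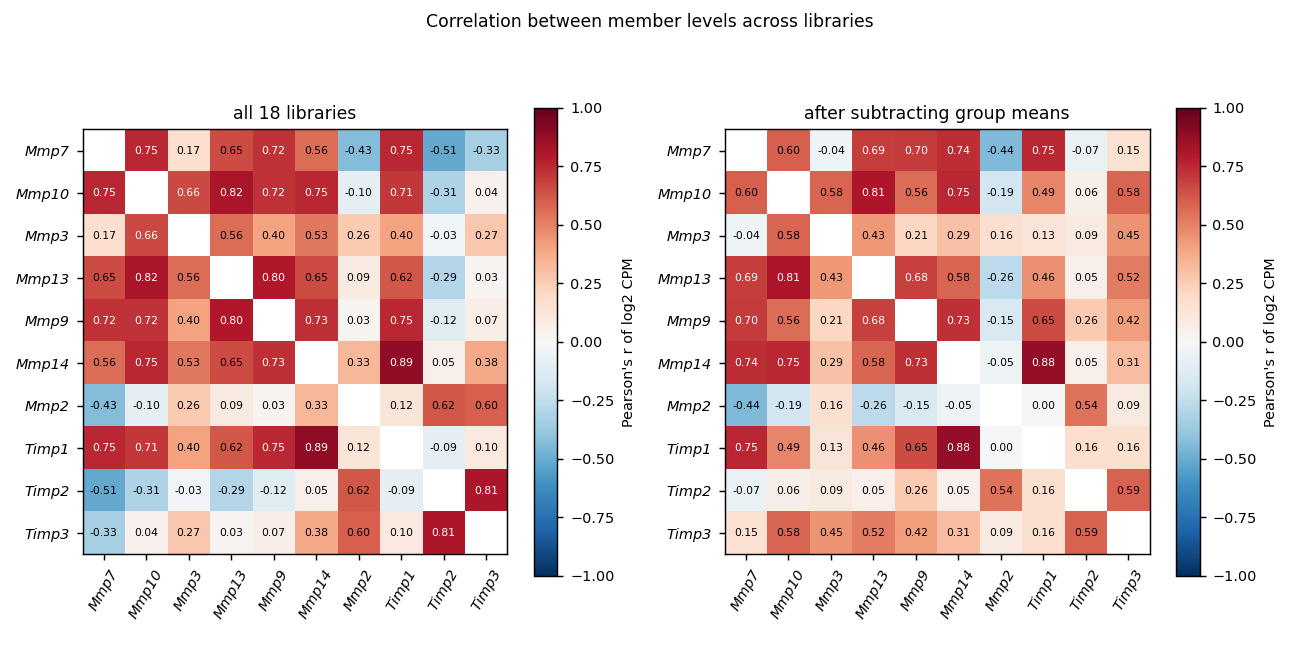
Pearson's r of log2 CPM for each pair of members, over the 18 libraries (left) and after subtracting each group's mean (right), from -1 (blue) to 1 (red). *Mmp14* with *Timp1* (0.88) and *Mmp10* with *Mmp13* (0.81) are the highest in the right panel, and *Timp2* with *Mmp7* goes from -0.51 on the left to -0.07 on the right.

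Among the genes tested that had a mean of at least 1 CPM, those whose log2 CPM were most like a member over the 18 libraries differed between members. For *Timp3* it was *Il6st*, the shared signal chain of interleukin-6 type receptors (Pearson's r = 0.972), for *Mmp14* *Slc41a1* (0.963), for *Timp1* *Tcf3* (0.962) and for *Timp2* *Evc2* (0.928). For *Mmp7* it was *Epb41l5* (0.921), followed by *Gata5* (0.905), for *Mmp2* *Sirpa* (0.92), for *Mmp10* *Zfp185* (0.918) and then *Sox4* (0.914), for *Mmp13* *Tmod3* (0.896) and for *Mmp9* *Arid3a* (0.892). *Mmp3* had no close partner, with *Ccl2*, a monocyte-attracting chemokine, at 0.74. The libraries share group and colon region.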

How the data were processed

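RNA was extracted from colon, and the deposited values are raw read counts per gene, in 36 columns for 18 libraries on 2 lanes, without normalization by the authors. The study's methods name TopHat2 and the submitters' processing notes name HISAT2, with featureCounts (Subread) and GRCm38. Versions, strand setting and annotation release are not given in the sources used here. Groups came from the genotype and treatment labels. Lanes were summed after their counts were compared (chi-square over its degrees of freedom of 1.08 to 1.18, against at least 11.9 between replicates).

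Genes were kept with filterByExpr (16937 kept, 30792 dropped), scaled with TMM, and fitted in edgeR 4.0.16 (R 4.3.3) with a mean per group, a quasi-likelihood F test and Benjamini-Hochberg adjustment over all genes. SE is the log2 fold change divided by the root of F. Levels are CPM with TMM scaling, and log2 CPM used a prior count of 2. A library without a read allows up to 3 reads, for counting error only. Named genes were the 10 members, called genes of the lists and the genes most like each member. Also named were the check genes *Cldn2*, *Hoxb13* and *Xist*, the overlapping gene *Syn3* and the uncalled markers *Ly6g*, *Mpo*, *Elane* and *Defa17*. Alternatives used other scaling or filters, DESeq2 1.42.0, limma-voom (limma 3.58.1), the compared groups alone, each library left out, a replicate block, and covariates for *Hoxb13* above 10 CPM and *Xist* above 100 CPM. The members and lists were chosen with earlier results of these data known. The scripts were tested on simulated counts.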

Additional observations from a re-analysis of the deposited data

How the results depend on the processing

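The member log2 fold changes followed here were those of at least 1 in size or larger than their SE, and smaller ones were not counted. Of these values recomputed under the alternatives, 678 kept their direction and their side of the threshold, 43 lost the call, 24 gained it and 12 reversed. The number of members called in WT recovery (3 as designed) was 0 with the *Hoxb13* covariate and 1 with the *Xist* covariate. It was 4 with DESeq2, where 27.1% of all genes were called (47.7% with limma-voom). It was also 4 with the compared groups alone (1738 genes called in all) and with at least 1 CPM in 3 libraries. With a library left out it was 1 to 3 (1875 to 4348 genes). In *Cldn2*KO recovery (1) it was 2 with upper-quartile scaling, 0 with either covariate, 3 with the compared groups alone, 3 with DESeq2 (23.9% of all genes), 2 with limma-voom (33.8%) and 0 to 1 with a library left out. In WT AOM/DSS (3) it was 0 without a filter (943 genes called in all) and with the *Hoxb13* covariate (320 genes). It was also 0 with the compared groups alone (7 genes) and with limma-voom (15% of all genes). It was 6 with DESeq2 (17.9%) and 0 to 6 with a library left out (171 to 1725 genes). In *Cldn2*KO AOM/DSS (0) it was 2 with the compared groups alone, 3 with DESeq2 (3.55% of all genes) and 3 with limma-voom (18.1%). In the genotype comparisons and interactions it was 0 under every alternative.

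Reversed values were the *Cldn2*KO against WT log2 fold changes after AOM/DSS of *Mmp7* (0.88) and *Timp1* (0.34) with limma-voom, with ranges over left-out libraries of -1.88 to 1.93 for *Mmp7*, -2.25 to 0.2 for *Mmp9* and -1.19 to 0.66 for *Timp1*. *Mmp14* in WT recovery was 0.43 with the *Hoxb13* covariate. The AOM/DSS interaction was 0.57 for *Mmp7* and 0.44 for *Mmp3* with limma-voom, with ranges over left-out libraries of -3.37 to 1.27 and -2.22 to 0.93, and the recovery interaction of *Mmp7* ranged from -3.76 to 0.35. The cause was not tested.

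Over all alternatives the number of genes called was 23 to 2526 for genotype in controls (199 as designed), 5 to 1900 in recovery (165) and 1 to 4 after AOM/DSS (1). For treatment it was 1478 to 8086 in WT recovery (3767), 133 to 5721 in *Cldn2*KO recovery (3292), 7 to 3033 in WT AOM/DSS (1761) and 4 to 3061 in *Cldn2*KO AOM/DSS (33), and for the interactions 0 to 1753 (22) and 0 to 288 (2). With upper-quartile scaling the calls split into 77 higher and 109 lower for genotype in recovery (93 and 72 as designed) and into 1221 and 2003 in *Cldn2*KO recovery (1599 and 1693).

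Replicate numbers were shared by the control groups only, and same-numbered controls did not deviate together (r = 0.157, 0.002 and 0.079). With the replicate block 0 members and 23 genes were called for genotype in controls. *Mmp9* had fewer than 10 reads in all controls, which limits the precision of its values.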
